A study of Mus musculus with 2 samples.

Results

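The insulin-like growth factor (IGF) axis was described as 10 genes chosen by symbol from its ligands (Igf1, Igf2), receptors (Igf1r, Igf2r) and binding proteins (Igfbp2, Igfbp3, Igfbp4, Igfbp5, Igfbp6, Igfbp7). They are 10 of the 19938 genes that the arrays measured through a probe set with a single gene symbol. Each of the 10 had 1 probe set, so no choice between probe sets was needed. RNA came from the tibialis anterior, a muscle of the shin, taken 7 days after an injection of 50 µl of 10 µM cardiotoxin, a snake venom peptide that kills muscle fibres and is followed by their regrowth. One pool held RNA of 5 Mef2a knockout mice (genotype Mef2a -/-) and the other RNA of 5 wild type mice (Mef2a +/+). All were of 129Sv/C57BL6 background, 2 to 4 months old and of both sexes, and all muscles of both pools were injured, so no uninjured muscle was measured. Each pool was hybridised to 1 array. There was no replicate of either genotype, hence no test, no p-value and no error of any value could be had.

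IGF1 and IGF2 are small secreted growth factors. They act mainly through the receptor tyrosine kinase IGF1R, which signals through IRS adaptors, PI3K and AKT to mTOR and the FOXO factors. IGF2R, which is also the cation-independent mannose 6-phosphate receptor, takes IGF2 up for breakdown and carries tagged enzymes to lysosomes. The IGF binding proteins hold the ligands outside the cell and can block or aid their action. In muscle, IGF1 and IGF2 are known to drive myoblast growth, differentiation and fibre size, and macrophages and fibroblasts of the injured muscle are known sources of IGF1.

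None of the 10 genes differed between the pools by as much as 1.5-fold. Over all 11787 measurable genes, 6.45% passed 1.5-fold upwards and 1.9% downwards in the knockout-labelled pool, so that a count of 0 among 10 genes is near the background. The differences of the 10, as log2 values of the knockout-labelled pool minus the wild type pool, ran from -0.18 (Igfbp5) to 0.41 (Igfbp7). Of the 10, 6 were higher and 4 lower, with a median of 0.14, against a median of 0.03 and 53.3% higher over all measurable genes. At the looser limit of 1.2-fold, 2 of the 10 were higher (Igfbp4 and Igfbp7) and 0 lower, where 21.5% of all measurable genes were higher and 14.2% lower. A gene was called measurable when its higher value reached 4.39 log2 units, the median of all values in the table, and all 10 passed in both pools.

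**Figure D1:**
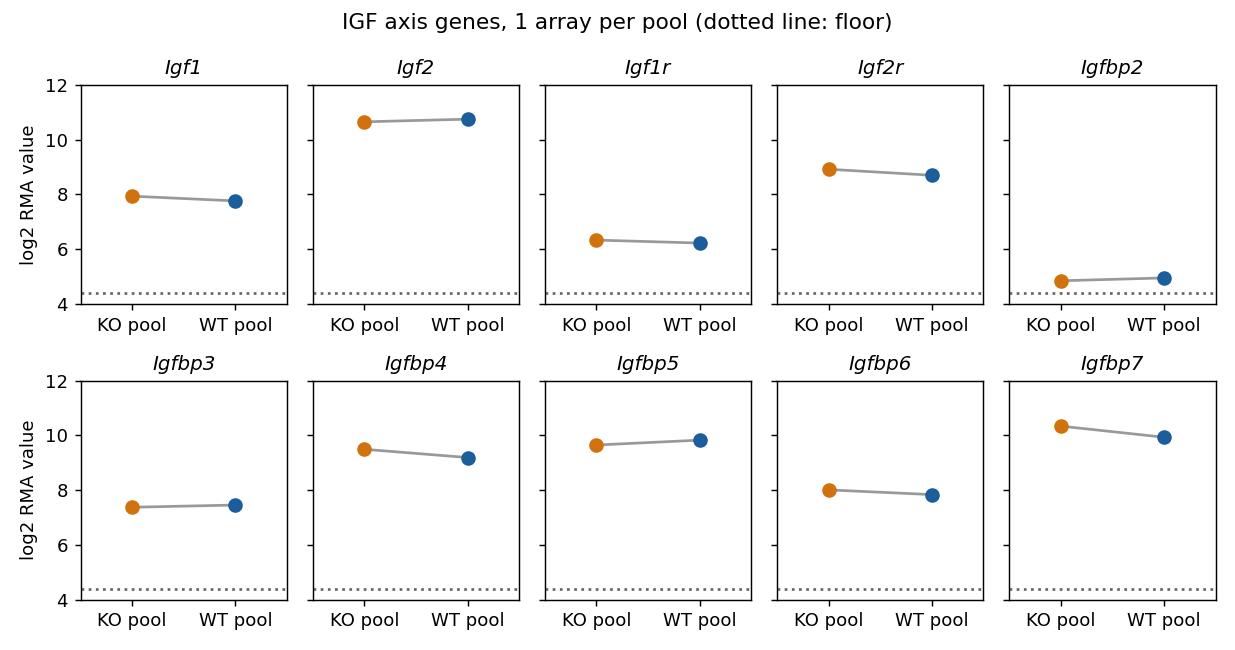
Log2 RMA value of each of the 10 genes in the Mef2a knockout pool (orange, left) and the wild type pool (blue, right), 1 array each. The dotted line is the floor of 4.39. Igfbp2 sits nearest to it, at 4.85 in the knockout pool and 4.95 in the wild type pool, and every line is nearly level. Levels of different probe sets are not comparable with each other.

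Transcripts of the labelled tissue were present in both pools, all 13 fibre markers being far above the floor. The targeted gene did not check the labels. Mef2a read 9.06 in the knockout-labelled pool and 8.92 in the wild type pool, and the deleted part of the gene is not named in the labels, so the probe set may lie outside it. The direction of each difference therefore rests on the labels. The spread of the differences, a robust SD of 0.28 over the measurable genes, mixes true differences with array scatter and is the only yardstick here. Of the 10 genes, 8 had a difference smaller than this spread, and 7 had a difference smaller in size than the median of 0.19 over all measurable genes.

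Both ligands were read clearly and close to equally in the pools. Igf1 (probe set 10365559) read 7.94 in the knockout-labelled pool and 7.76 in the wild type pool, a difference of 0.17 or 1.13-fold. The size of that difference exceeded those of 46.0% of the measurable genes. Igf2 (probe set 10569344), which is imprinted and made from several promoters, read 10.65 in the knockout-labelled pool and 10.75 in the wild type pool. It was thus 1.07-fold lower (-0.10 on the log2 scale), a smaller difference in size than that of most genes. The ligands therefore stood on opposite sides of 0, and the difference of Igf1 was 0.27 above that of Igf2. In whole muscle, fewer cells of a type and less RNA per cell cannot be told apart.

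The RefSeq promoters used here hold 1 start for Igf1 and 4 for Igf2, and any other start was not looked at. The value of the Igf2 probe set does not separate RNA from these 4 starts. The 100 bases just before each start are given to show these promoters, 5′ to 3′ on the gene's strand, from RefSeq's GRCm38.p6, with CG dinucleotides in capitals. The Igf2 starts are numbered from the most upstream.
Igf1, chr10:87861011-87861110, plus strand: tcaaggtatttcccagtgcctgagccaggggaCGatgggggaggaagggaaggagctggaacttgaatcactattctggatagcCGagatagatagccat
Igf2 start 1, chr7:142666817-142666916, minus strand: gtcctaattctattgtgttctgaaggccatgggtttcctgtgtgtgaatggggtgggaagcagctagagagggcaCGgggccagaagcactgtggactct
Igf2 start 2, chr7:142661272-142661371, minus strand: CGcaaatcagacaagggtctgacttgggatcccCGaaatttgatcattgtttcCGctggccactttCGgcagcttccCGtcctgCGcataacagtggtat
Igf2 start 3, chr7:142658805-142658904, minus strand: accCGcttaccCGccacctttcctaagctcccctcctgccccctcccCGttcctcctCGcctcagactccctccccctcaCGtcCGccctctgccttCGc
Igf2 start 4, chr7:142657497-142657596, minus strand: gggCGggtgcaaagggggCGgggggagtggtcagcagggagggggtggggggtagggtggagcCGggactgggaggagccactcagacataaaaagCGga
The stretch before Igf1 holds 2 CG dinucleotides. Before the Igf2 starts there are 1, 6, 7 and 4, in the order shown, so the starts of this gene lie in sequence of unlike composition.

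Both receptors read slightly higher in the knockout-labelled pool. Igf1r (probe set 10554094), the signalling receptor, read 6.33 in the knockout-labelled pool and 6.22 in the wild type pool, 1.08-fold higher. Igf2r (probe set 10447799), the scavenging receptor, read 8.92 in the knockout-labelled pool and 8.70 in the wild type pool, 1.16-fold higher, and its difference exceeded in size those of 56.1% of measurable genes. Airn, the non-coding RNA that runs antisense through Igf2r and takes part in its imprinting, read 7.19 in the knockout-labelled pool and 7.20 in the wild type pool. Insr, the insulin receptor, which can pair with IGF1R, read 7.50 in the knockout-labelled pool and 7.49 in the wild type pool, though with the mean of its 2 probe sets the difference of 0.01 becomes -0.05.

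The 6 binding proteins spread to both sides, 3 higher and 3 lower, over 0.58 log2 units. Igfbp7 (probe set 10530841) encodes a secreted protein that binds IGFs weakly and is found around vessels. It read 10.34 in the knockout-labelled pool and 9.93 in the wild type pool, 1.32-fold higher. This was the largest of the 10 differences, larger in size than those of 81.4% of all measurable genes and of 79.4% of the 500 genes nearest to it in mean value. Igfbp4 (probe set 10381096), a binding protein that mostly holds IGFs back until proteases cut it, read 9.49 in the knockout-labelled pool and 9.19 in the wild type pool, 1.23-fold higher. Igfbp6 (probe set 10427125), which prefers IGF2, read 8.01 in the knockout-labelled pool and 7.84 in the wild type pool, a difference of 0.17.

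Of the 3 that were lower, Igfbp5 stood farthest from 0. Igfbp5 (probe set 10355500), which myoblasts make as they differentiate, read 9.65 in the knockout-labelled pool and 9.83 in the wild type pool, 1.13-fold lower. Igfbp2 (probe set 10347277) read 4.85 in the knockout-labelled pool and 4.95 in the wild type pool. It lay only 0.45 log2 units above the floor in the knockout-labelled pool, where RMA values understate differences. Igfbp3 (probe set 10384223), the main carrier of IGFs in blood, read 7.38 in the knockout-labelled pool and 7.46 in the wild type pool. Its difference of -0.08 was the smallest of the 10 in size. With the loess trend removed it was -0.14, and that of Igf1r, 0.05, was the smallest.

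**Figure D2:**
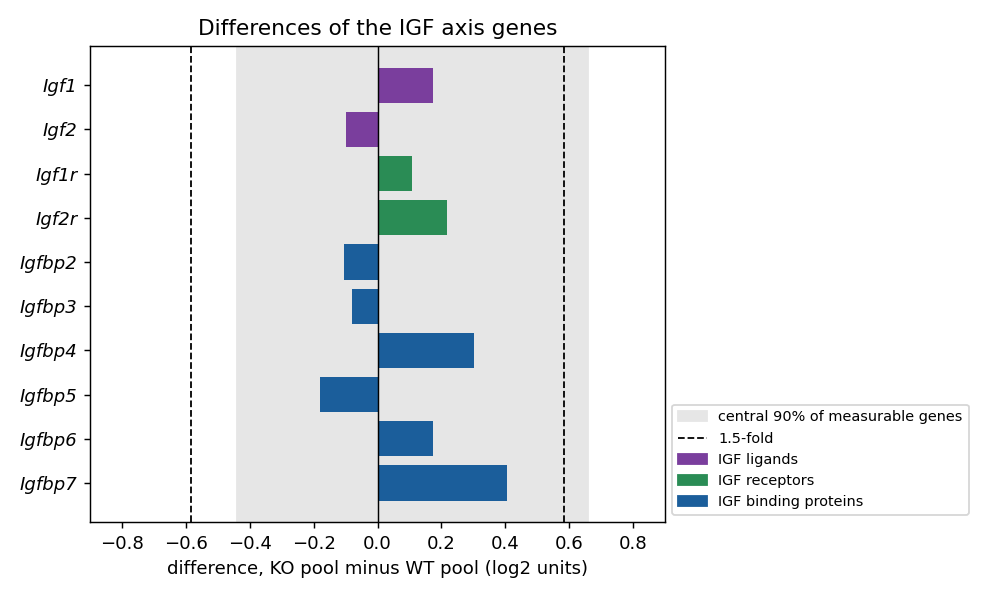
Difference of each gene (knockout-labelled pool minus wild type pool, log2 units), coloured by role. The grey band holds the central 90% of all measurable genes, from -0.44 to 0.66, and dashed lines mark 1.5-fold. All 10 bars end inside the band and the dashed lines, and the longest, Igfbp7, ends at 0.41.

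For the binding proteins with the most positive differences, Igfbp7 and Igfbp4, and the most negative, Igfbp5, the same 100-base stretches are shown to set their starts side by side. Capitals mark CG dinucleotides and, in Igfbp4, the letters TATAAA.
Igfbp7, chr5:77408046-77408145, minus strand: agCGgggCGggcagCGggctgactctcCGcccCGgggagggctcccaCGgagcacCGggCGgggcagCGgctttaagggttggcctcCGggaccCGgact
Igfbp4, chr11:99041144-99041243, plus strand: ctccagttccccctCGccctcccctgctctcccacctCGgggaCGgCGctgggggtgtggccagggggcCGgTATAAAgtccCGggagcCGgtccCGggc
Igfbp5, chr1:72874866-72874965, minus strand: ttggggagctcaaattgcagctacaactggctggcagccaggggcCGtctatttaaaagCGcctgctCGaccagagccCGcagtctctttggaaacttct
Igfbp7 has 11 CG dinucleotides in this stretch, Igfbp4 has 8 and Igfbp5 has 4. Counted from 250 bases before to 50 after each start, the higher genes Igfbp7, Igfbp4 and Igfbp6 held 33, 27 and 8. The lower genes Igfbp3 and Igfbp5 held 37 and 10, and the starts of Igfbp2, also lower, held 18 and 14. A link between these counts and the differences was not tested. The TATAAA of Igfbp4 begins 28 bases before the start.

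MEF2 proteins bind an A/T-rich site, so the promoters were searched for the MEF2 consensus by letters. RefSeq gave 14 promoter windows for the 10 genes, each of 250 bases before and 50 after a start. None of the 14 held the MEF2 consensus on either strand, against 3.19% of all 32851 promoter windows. TATAAA on either strand was found in 2 of the 14 windows (14.3%), those of Igfbp4 and Igfbp6, against 13.6% of all windows. The median GC content was 64.0% in the 14 windows and 52.7% in all, and the median number of CG dinucleotides was 16 and 7. The absence of a match says only that these letters are not in these windows.

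**Figure D3:**
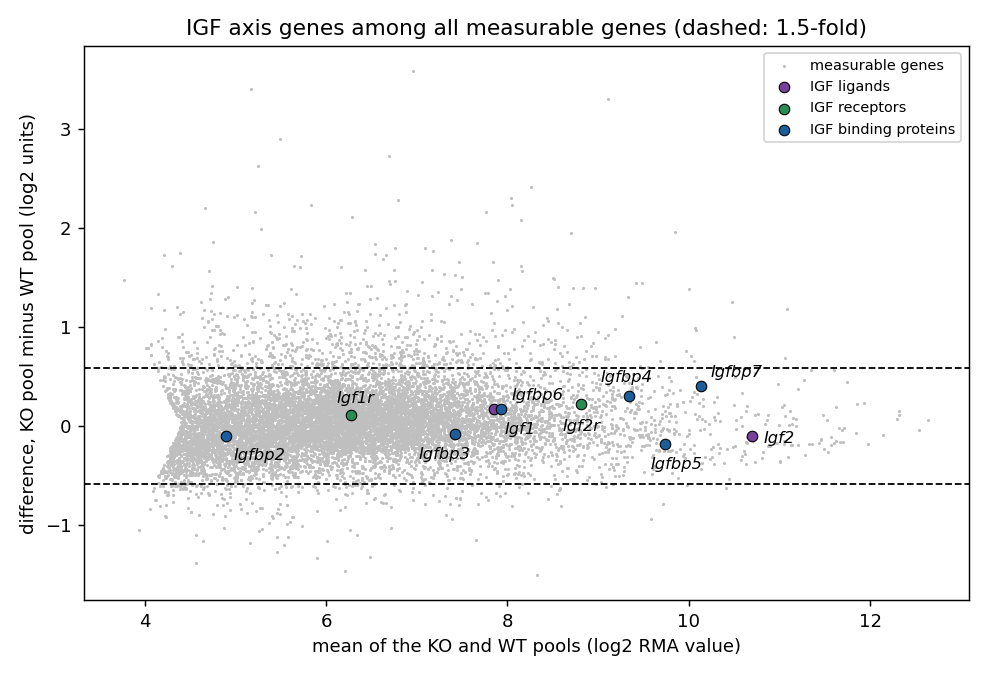
Difference (knockout-labelled pool minus wild type pool, log2 units) against the mean of both pools for all 11787 measurable genes (grey) and the 10 genes (coloured by role). Dashed lines mark 1.5-fold. The 10 genes span means from near the floor (Igfbp2) to the bright end of the array (Igf2) and all lie inside the dashed lines.

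Beyond the 10 genes, 8 lists, called pathway lists here, held 84 further genes. Of the 84, 77 had a probe set of their own and 61 were measurable. The lists also hold genes outside IGF signalling, those of the mannose 6-phosphate tag and other proteins with an IGF binding protein fold. Of these 61, 7 (11.5%) passed 1.5-fold upwards in the knockout-labelled pool and 0 downwards, where 6.45% of all measurable genes did so upwards and 1.9% downwards. Of the 7, 3 were other proteins with that fold and 2 were genes of the tag. The other 2 were among the receptor substrates and PI3K to AKT genes. The median difference of the 61 was 0.03, the same to 2 decimals as that of all measurable genes. With the loess trend removed, 6 of the 7 were still past 1.5-fold (all but Ccn5), and 6 with median centring.

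Upstream of the ligands, growth hormone signalling genes, which drive Igf1 in liver and muscle, had 0 of 7 measurable members past 1.5-fold and a median of -0.20, which was -0.10 without a floor and 0.00 with the floor at 6.18, the upper quartile of all values. The largest differences were those of 2 feedback inhibitors and a transcription factor. Socs3 read 6.46 in the knockout-labelled pool and 5.95 in the wild type pool, a difference of 0.51 that becomes 0.24 with the mean of its 2 probe sets. Socs2 read 6.83 in the knockout-labelled pool and 6.40 in the wild type pool. Stat5a differed by -0.27. The growth hormone receptor gene Ghr read 7.78 in the knockout-labelled pool and 8.01 in the wild type pool.

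Among carriers and proteases of the binding proteins, 4 of 10 genes were measurable, 0 past 1.5-fold, with a median of 0.20, which was 0.00 over all 10 genes without a floor. Adam12, a membrane protease that cuts IGFBP3 and IGFBP5, read 7.16 in the knockout-labelled pool and 6.76 in the wild type pool, 1.32-fold higher. Pappa, which cuts IGFBP4, read 4.72 in the knockout-labelled pool and 4.48 in the wild type pool, near the floor. Htra1, a secreted serine protease, differed by 0.16. Igfbp1, the liver's binding protein, and Igfals, which stabilises the IGFBP3 complex in blood, lay below the floor in both pools (3.16 and 3.65 in the knockout-labelled pool, 2.97 and 3.77 in the wild type pool).

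Behind the receptor, 2 of 18 measurable substrates and PI3K to AKT genes (11.1%) passed 1.5-fold upwards and 0 downwards. Their median was 0.12. Over all measurable genes, 6.45% passed this limit upwards and 1.9% downwards. Pik3cb, a catalytic subunit of PI3K, read 7.07 in the knockout-labelled pool and 6.13 in the wild type pool, 1.92-fold higher. Ptpn1, a phosphatase that acts on the insulin and IGF1 receptors, read 7.28 in the knockout-labelled pool and 6.56 in the wild type pool, 1.64-fold higher. Grb14, an adaptor that inhibits the insulin receptor, read 6.20 in the knockout-labelled pool and 6.75 in the wild type pool, a difference of -0.55, or -0.61 and past 1.5-fold with the loess trend removed.

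None of 18 measurable mTOR, GSK3 and FOXO genes was past 1.5-fold, and their median was -0.03. Foxo4, a FOXO factor that AKT keeps out of the nucleus, differed by -0.30. Deptor, an inhibitor of mTOR, differed by -0.29, and Ddit4, another inhibitor, by -0.23. The core kinase gene Mtor read 6.73 in the knockout-labelled pool and 6.84 in the wild type pool.

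Genes that tag the lysosomal cargo of IGF2R were read as well, while its role in lysosomes was not tested. Of 3 measurable genes of the mannose 6-phosphate tag, 2 passed 1.5-fold upwards and 0 downwards, with a median of 0.70. The shares of all measurable genes past that limit were 6.45% and 1.9%, and 3 genes are few for such a comparison. Gnptab, a subunit of the enzyme that starts the tag, read 7.25 in the knockout-labelled pool and 6.06 in the wild type pool, 2.29-fold higher and the only one of the 61 past 2-fold, a limit that 1.7% of all measurable genes passed upwards and 0.187% downwards. Nagpa, the enzyme that uncovers the tag, read 6.49 in the knockout-labelled pool and 5.79 in the wild type pool, 1.62-fold higher. Gnptg, another subunit of the first enzyme, differed by -0.10. The other receptor of the tag, M6pr, shares its probe set with another gene and was left out.

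Other proteins that carry the IGF binding protein fold were also read. Among 9 measurable ones, 3 passed 1.5-fold upwards and 0 downwards, against 6.45% and 1.9% of all measurable genes. All 3 were of the CCN family of matrix-bound signalling proteins. In the same family, Ccn1 and Ccn4 differed by 0.14 and 0.47, within 1.5-fold, and Ccn6 lay below the floor in both pools. The median of the 9 was 0.16, and that of the list was 0.00 without a floor and 0.31 with the floor at 6.18. Ccn2 read 8.37 in the knockout-labelled pool and 7.64 in the wild type pool, 1.66-fold higher. Ccn3 read 7.90 in the knockout-labelled pool and 7.23 in the wild type pool, 1.59-fold higher. Ccn5 differed by 0.60, or by 0.53 with the loess trend removed and 0.57 with median centring, both within 1.5-fold. Of 8 regulators of Igf2 and Igf2r transcripts, 5 had a probe set of their own, and H19, Igf2os and Igf2bp2 were not read. Of the 5, 2 were measurable, Airn and Plagl1, an imprinted zinc finger gene, which differed by -0.25.

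**Figure D4:**
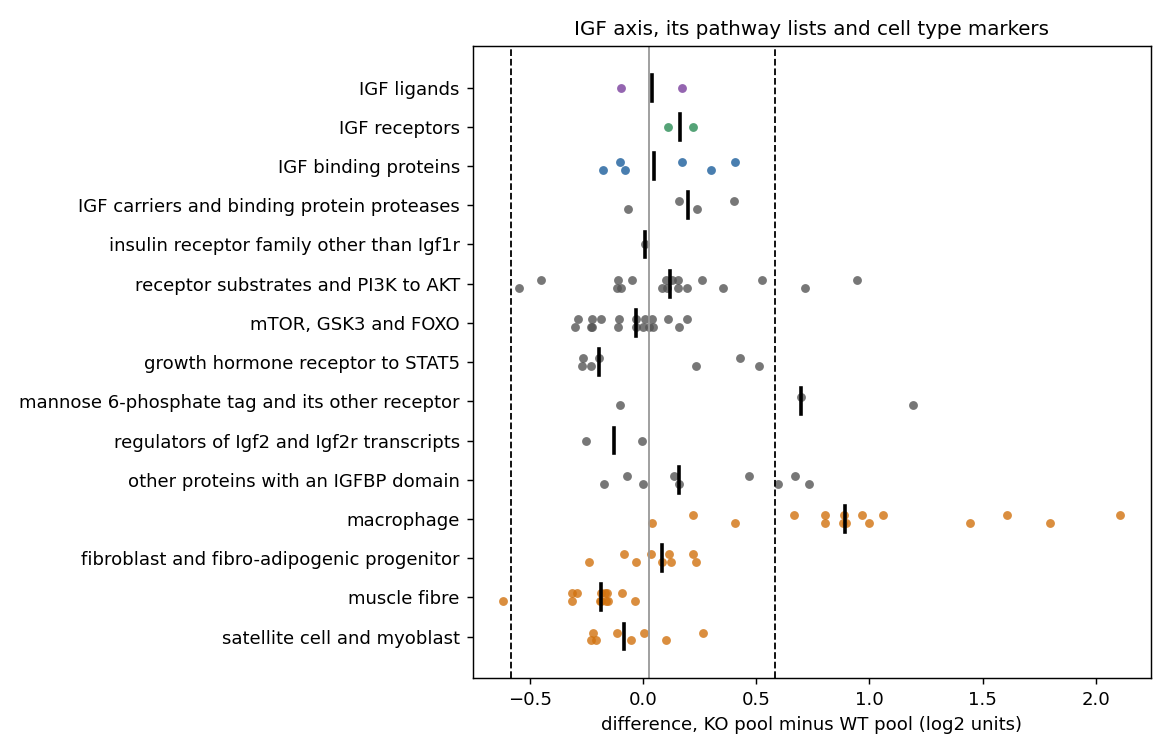
Difference of each measurable gene (points, knockout-labelled pool minus wild type pool, log2 units) in the 3 groups of the IGF axis, its 8 pathway lists (grey) and 4 cell type marker lists (orange). Black bars are medians, dashed lines 1.5-fold and the grey line the median of all measurable genes, 0.03. Macrophage markers lie to the right with a median of 0.89, and fibre markers all lie left of 0.

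Markers of cell types that make or receive IGFs differed by unlike amounts in the same RNA. All 16 macrophage markers were measurable, 13 were at least 1.5-fold higher and 0 lower, and their median difference was 0.89. The summed level of the macrophage markers on the linear scale was 5128 in the knockout-labelled pool and 2513 in the wild type pool. Such sums, here and below, add levels of different probe sets, which are not comparable with each other. The brightest probe sets weigh most in them. Upwards, 1.7% of all measurable genes passed 2-fold. The 5 macrophage markers past it were Msr1 (2.11 on the log2 scale), Itgam (1.80), Cd14 (1.61), Cd68 (1.45) and Ptprc (1.06). Beside these, the difference of Igf1 was 0.17 and that of Igfbp7, the largest of the 10, was 0.41. The part of macrophages in the values of the 10 genes was not tested.

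Fibroblast markers differed by less. Of 9 measurable, 6 were higher and 3 lower, 0 were past 1.5-fold and the median was 0.08. Cd34 (-0.24) stood farthest from 0. The summed level of the fibroblast markers was 14944 in the knockout-labelled pool and 13550 in the wild type pool. All 13 fibre markers were lower, 1 of them past 1.5-fold (Myh2, -0.62), with a median of -0.18. Over all measurable genes, 1.9% passed that limit downwards. With the loess trend removed, all fibre markers but Acta1 (0.03) were still lower, and their median was -0.13. The summed level of the fibre markers was 35333 in the knockout-labelled pool and 39593 in the wild type pool. Of 8 measurable satellite cell and myoblast markers, 3 were higher, 5 lower and 0 past 1.5-fold. Their median was -0.09, Vcam1 (0.27) being farthest from 0. The difference of Igfbp5 was -0.18, close in size to the fibre median, and -0.19 with the loess trend removed. The part of these cells in it was not tested.

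Endothelial markers had a median of -0.05, with 1 of 9 past 1.5-fold (Vwf, 0.84). Mural markers had a median of 0.00, with 4 of 8 higher and 4 lower. Of the 8, 0 were past 1.5-fold, Abcc9 (-0.58) and Tagln (0.52) being farthest to each side. Adipocyte markers had a median of -0.02, with Cidec at -0.39. Schwann cell markers had a median of 0.07, with Mbp at 0.46, and 3 measurable tenocyte markers one of 0.32, with 1 past 1.5-fold (Fmod, 0.64) and Scx on the other side at -0.48. None of the 8 neutrophil and none of the 7 lymphocyte markers with a probe set reached the floor.

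Genes whose values lay nearest to those of the ligands were named by distance over the 2 arrays, a likeness that rests on 2 values only. The distance is taken over levels of different probe sets, which are not comparable with each other. Nearest to Igf1 of 11440 genes were Ankrd17 (7.92 in the knockout-labelled pool, 7.76 in the wild type pool), Cbfb and Banf1, at distances of 0.02, 0.02 and 0.03 log2 units. Nearest to Igf2 were Serpinb6a (10.64 in the knockout-labelled pool, 10.79 in the wild type pool), Pkm and Pgk1, at distances of 0.04, 0.08 and 0.09.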

How the data were processed

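RNA of 5 muscles per genotype was pooled in equal amounts before labelling, per the labels' protocols. The deposited values are log2 expression values per probe set, for which the submitters' processing notes name RMA and the program Affymetrix Expression Console. The genome build, like versions and settings, was not given in the sources used here. RMA corrects background, sets the distributions of the arrays equal and summarises probes. Once sorted, the arrays' values lie within 0.139 of each other, so a change shared by most genes cannot be seen. No detection calls were used, and the number of arrays limits the precision.

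Of 35557 probe sets, 21789 had 1 gene symbol in the platform annotation, 1621 several and 12147 none. Only the first were used. The gene identifiers of 21698 were found in RefSeq's GRCm38.p6 table. The probe set with the highest mean stood for a gene. The floor for a measurable gene was the median of all values. Differences are log2 values of the knockout-labelled pool minus the wild type pool (Python 3.11.15, pandas 2.3.3, numpy 2.4.6). With 1 array a genotype no test was run, and genes were counted past 1.5-fold and 2-fold. Named genes are all 10 of the axis, up to 3 per pathway list with the largest differences and those past 1.5-fold, per marker list the largest difference and those past 2-fold, and a few others of the pathway chosen after their values were seen (Ghr, Mtor, Igfbp1, Igfals, Ccn1, Ccn4, Ccn6). Members and lists were chosen with earlier results of these data known. Promoter sequences are RefSeq's, matched by symbol for 10 of 10 genes. The counting was tested on simulated data. Alternatives were median centring, the mean of all probe sets, removal of a loess trend of span 0.3 with statsmodels 0.14.6, other floors and other fold limits.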

Additional observations from a re-analysis of the deposited data

How the results depend on the processing

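The direction of all 10 differences was the same under median centring, loess trend removal, the mean of all probe sets and percentiles within each array, the largest shift being 0.06 log2 units. The number past 1.5-fold and 2-fold was 0 under the first 3 of these settings, without a floor and with a higher one of 6.18, the upper quartile of the table, which Igf1r reached and Igfbp2 did not. The mean of all probe sets could not differ, since each of the 10 genes had 1 probe set. Nor could the floors change the count, since all 10 passed the main floor and 0 were past 1.5-fold. At 1.2-fold 2 were higher. The background count depended on the floor: 618 genes were at least 1.5-fold lower without a floor and 94 with the higher one, against 224, and 43 and 10 were at least 2-fold lower, against 22. Medians of 4 pathway lists moved by 0.1 or more with the floor, those of the growth hormone list, the carriers and proteases, the regulators of Igf2 and Igf2r transcripts (-0.24 without a floor, against -0.13) and the other proteins with an IGF binding protein fold. No paired analysis was possible because each genotype has 1 array, and for the same reason no array could be left out. Protein sequences were not analysed here. Values near the floor, as those of Igfbp2 and Pappa, limit what can be seen of their differences.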
